A study of Arabidopsis thaliana with 12 samples.

Results

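The 10 genes described here are Arabidopsis thaliana genes known for high transcript levels when sugar is short, and they were taken by identifier from the 28775 genes counted in each library. They are ASN1 (AT3G47340), ERD5 (AT3G30775), DIN10 (AT5G20250), TPS8 (AT1G70290), TPS9 (AT1G23870), BT2 (AT3G48360), AT1G80440 (Kelch repeat F-box 20), AT2G20670, SEN1 (AT4G35770) and DRM2 (AT2G33830). The genes were selected on knowledge of sugar starvation together with earlier results of the light comparison, the log2 changes of RPF and total RNA from low to high light. Their changes between low and high light are therefore given as a description. No p-value is printed for the light change of any of them, and counts of calls among them are no test of the group.

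The libraries were made from whole rosettes of Col-0, a standard laboratory accession, either from ribosome-protected fragments (RPF, the stretches of mRNA covered by ribosomes) or from total RNA. Soil-grown plants, 3 weeks old, spent 10 days in dim light of 8 µmol of photons per square metre and second (LL). Some were left there and others received 800 µmol of photons per square metre and second during 10 min (HL), and all rosettes were harvested in the middle of the light period, so that the control rosettes had also spent the 10 days in low light. The 12 libraries, 3 for each light and kind of RNA, carry the numbers 1 to 3 in every group. How many plants went into a library is not given in the sources used here.

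A plant cell short of sugar activates the kinase SnRK1, which, together with bZIP transcription factors of groups C and S1, switches on genes that release carbon and nitrogen from stored compounds and amino acids. Sugar, and trehalose-6-phosphate as its signal, holds this programme down, so its genes are known as dark-inducible or sugar-repressed. In leaves their transcripts are known to build up in extended darkness or shade and to decline once photosynthesis or supplied sugar restores the carbon supply.

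The RPF libraries held 1161026 to 2117195 counts in protein-coding genes and the total RNA libraries 2437058 to 16046363. Both RPF libraries of number 1 stood apart, with 82.7% of all counts in rRNA genes in LL and 84.6% in HL, against 4.42% to 8.66% in the other 4 RPF libraries. Results that rest on number 1 are therefore also given without it. The root markers EXPA7, COBL9 and CASP2 had no count in any of the 12 libraries, the 3 flower markers summed to at most 0.859 CPM (counts scaled to the library's normalised protein-coding total), and the 4 mesophyll markers summed to between 9471 and 18729 CPM. Root and flower markers were thus at or near 0. Across the 10 genes and 12 libraries the lowest count was 15, for BT2 in RPF HL 3, and the highest was 11619, for DRM2. No gene overlapped another gene on either strand, and all 10 passed the filter on low counts in both kinds of library. In whole rosettes, less RNA per cell and fewer cells of a type cannot be told apart.

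All 10 genes had a fitted log2 change below 0 after 10 min of high light, in RPF and in total RNA. Their median log2 change was -0.66 in RPF, where the median of 10755 tested genes was -0.0025, and -0.89 in total RNA, where the median of 15691 tested genes was -0.0063. BT2, AT1G80440 and AT2G20670 had the 3 lowest values in both kinds of library, between -1.20 and -1.66. DRM2 was closest to 0 in both, at -0.18 in RPF and -0.12 in total RNA.

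**Figure D1:**
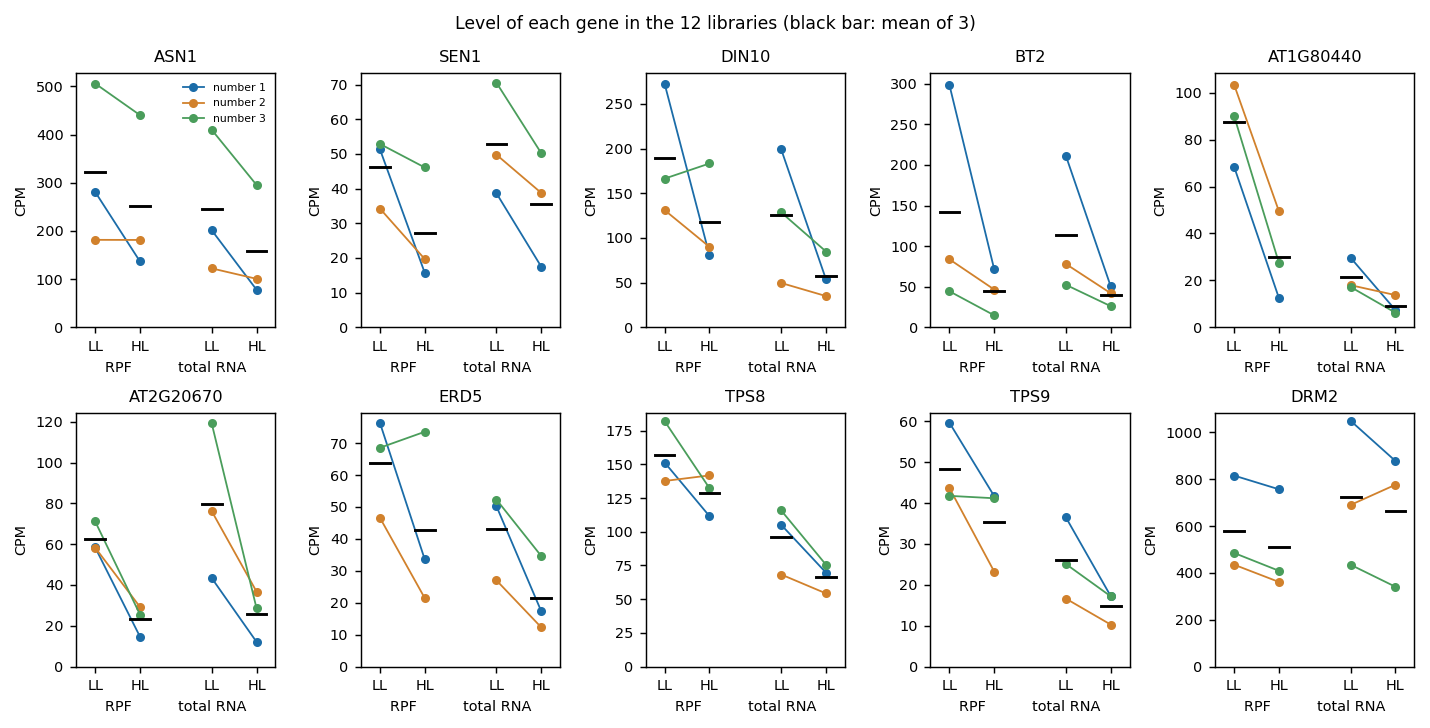
CPM (vertical axes, starting at 0) of each of the 10 genes in LL and HL, for RPF on the left and total RNA on the right of each panel. Lines join libraries of the same number and black bars are means of 3; the lines of AT1G80440 and AT2G20670 all run downwards, while in total RNA the line of DRM2 for number 2 runs upwards.

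Of the genes of amino acid metabolism, ASN1 encodes a glutamine-dependent asparagine synthetase, which stores nitrogen in the carbon-poor amide asparagine. The gene lies on TAIR10 chromosome 3 from 17437884 to 17441243, minus strand. In total RNA it was at 201, 122 and 410 CPM in LL 1, 2 and 3, and at 77.9, 100 and 295 CPM in HL 1, 2 and 3. Each HL library was below the LL library of its number, yet the groups overlapped, with number 3 high in both lights. In RPF it was at 281, 181 and 506 CPM in LL and at 137, 181 and 440 CPM in HL. The RPF libraries of number 2 were nearly equal, and the difference lay mostly in number 1. The fitted log2 changes were -0.63 ± 0.54 (SE) in total RNA and -0.36 ± 0.44 in RPF, so each SE was close to the size of the change or above it. Leaving out 1 library at a time moved them between -1.46 and -0.032 in total RNA and between -1.02 and 0.13 in RPF, and without number 1 they were -0.42 and -0.15. The sign in RPF turned without LL 3.

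ERD5 encodes the mitochondrial proline dehydrogenase, the first step of proline breakdown. It is at TAIR10 chromosome 3, 12448636 to 12451248, minus strand. Its total RNA was at 50.2, 27.0 and 52.3 CPM in LL and at 17.3, 12.3 and 34.6 CPM in HL, with number 2 lowest in both lights. RPF was at 76.4, 46.6 and 68.5 CPM in LL and at 33.6, 21.5 and 73.5 CPM in HL. HL 3 was the RPF library that broke the order, slightly above LL 3. Fitted log2 changes were -1.01 ± 0.38 in total RNA and -0.62 ± 0.38 in RPF. Without single libraries they ranged from -1.54 to -0.73 in total RNA and from -1.21 to -0.28 in RPF; without number 1 they stood at -0.76 and -0.33.

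Of the genes of sugar metabolism and its signal, DIN10 encodes a protein of the raffinose synthase family (raffinose synthase 6 in the RefSeq gene table). It is at TAIR10 chromosome 5, 6833659 to 6836782, plus strand. In total RNA it was at 199, 49.6 and 129 CPM in LL and at 53.6, 34.9 and 84.8 CPM in HL. LL 1 and LL 3 stood above all HL libraries and LL 2 did not. In RPF it was at 273, 131 and 166 CPM in LL and at 80.7, 90.0 and 183 CPM in HL, with number 3 slightly higher in HL. The log2 changes were -1.11 ± 0.47 in total RNA and -0.70 ± 0.35 in RPF. Leaving out 1 library at a time moved them between -1.50 and -0.64 in total RNA and between -1.16 and -0.35 in RPF, and without number 1 they were -0.57 and -0.13.

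TPS8 and TPS9 belong to the class II trehalose-6-phosphate synthase family, whose members carry synthase and phosphatase domains and are thought to act in regulation more than in catalysis. TPS8 lies on TAIR10 chromosome 1 from 26471078 to 26474786, minus strand, and TPS9 on the same chromosome from 8432179 to 8435656, plus strand. TPS8 total RNA was at 105, 68.3 and 116 CPM in LL and at 69.6, 54.3 and 75.5 CPM in HL. TPS9 total RNA was lower throughout, at 36.5, 16.6 and 25.1 CPM in LL and at 17.2, 10.3 and 17.2 CPM in HL. For both genes every HL library was below the LL library of its number, and number 2 was the lowest library of each light, which made the groups overlap. In RPF, TPS8 was at 151, 138 and 182 CPM in LL and at 112, 142 and 132 CPM in HL, and TPS9 was at 59.7, 43.7 and 41.8 CPM in LL and at 41.7, 23.2 and 41.2 CPM in HL. The RPF groups of TPS9 did not overlap, although LL 3 and HL 1 nearly touched. TPS8 had log2 changes of -0.53 ± 0.27 in total RNA and -0.29 ± 0.23 in RPF, and TPS9 of -0.77 ± 0.31 and -0.47 ± 0.28. For TPS8, fits without 1 library gave -0.74 to -0.38 in total RNA and -0.37 to -0.16 in RPF, and those without number 1 gave -0.50 and -0.22. For TPS9 the ranges were -1.03 to -0.49 and -0.63 to -0.23, with -0.60 and -0.44 without number 1.

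Of the genes of regulatory proteins, BT2 encodes a BTB and TAZ domain protein that is known to be repressed by sugar and to act in nitrate and hormone responses. The gene lies on TAIR10 chromosome 3 from 17908192 to 17910525, minus strand. Its total RNA was at 211, 78.0 and 52.3 CPM in LL and at 50.3, 41.9 and 26.0 CPM in HL, so that even the lowest LL library was above the highest HL library. RPF was at 299, 83.8 and 44.4 CPM in LL and at 71.5, 46.5 and 14.7 CPM in HL. Number 1 was the highest library and number 3 the lowest in every group, and the LL libraries of RPF differed among themselves by a factor of 6.73. The log2 changes were -1.51 ± 0.47 in total RNA and -1.66 ± 0.61 in RPF. Leaving out 1 library at a time moved them between -1.86 and -0.73 in total RNA and between -2.18 and -0.48 in RPF, and without number 1 they were -0.93 and -1.00. The values nearest 0 in both were those without LL 1.

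AT1G80440 encodes a Kelch repeat F-box protein, also named KISS ME DEADLY 1, of a family that targets phenylpropanoid enzymes and type-B response regulators of cytokinin signalling for breakdown. It is at TAIR10 chromosome 1, 30241607 to 30243071, plus strand. Total RNA was at 29.6, 17.9 and 17.2 CPM in LL and at 7.33, 13.7 and 6.18 CPM in HL. RPF was at 68.5, 103 and 90.1 CPM in LL and at 12.5, 49.5 and 27.5 CPM in HL. LL and HL did not overlap in either kind of library, and number 2 was the highest HL library in both. The log2 changes were -1.20 ± 0.33 in total RNA and -1.55 ± 0.39 in RPF. Without single libraries they ranged from -1.62 to -0.95 in total RNA and from -2.18 to -1.15 in RPF; without number 1 they stood at -0.80 and -1.30.

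AT2G20670 has no symbol in the RefSeq gene table, and no role is given for it here. It is at TAIR10 chromosome 2, 8911860 to 8913534, minus strand. Its total RNA was at 43.4, 76.2 and 119 CPM in LL and at 12.1, 36.7 and 28.6 CPM in HL, and its RPF at 58.4, 58.3 and 71.1 CPM in LL and at 14.6, 29.2 and 25.5 CPM in HL. The groups were apart in both kinds of library, and the RPF libraries of LL were within a factor of 1.22 of each other. Log2 changes were -1.64 ± 0.43 in total RNA and -1.45 ± 0.28 in RPF. Leaving out 1 library at a time moved them between -1.99 and -1.23 in total RNA and between -1.68 and -1.18 in RPF, and without number 1 they were -1.57 and -1.23.

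Of the genes named for senescence and dormancy, SEN1 is the dark-inducible gene DIN1, long used as a marker of dark-induced senescence. The gene lies on TAIR10 chromosome 4 from 16944941 to 16946192, plus strand. Total RNA was at 38.6, 49.8 and 70.5 CPM in LL and at 17.4, 38.7 and 50.2 CPM in HL. RPF was at 51.4, 34.2 and 52.9 CPM in LL and at 15.7, 19.7 and 46.1 CPM in HL. Every number was lower in HL in both kinds of library, and the groups overlapped through number 3 of HL and, in total RNA, also number 2. The log2 changes were -0.59 ± 0.37 in total RNA and -0.83 ± 0.37 in RPF. Without single libraries they ranged from -0.93 to -0.26 in total RNA and from -1.39 to -0.54 in RPF; without number 1 they stood at -0.43 and -0.46. Among fits without a single library, those without HL 1 gave the values nearest 0.

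DRM2 is a dormancy-associated gene of the DRM1/ARP family and was the most abundant of the 10 transcripts. It is at TAIR10 chromosome 2, 14309484 to 14310351, minus strand. Total RNA was at 1049, 690 and 434 CPM in LL and at 878, 776 and 341 CPM in HL. RPF was at 815, 435 and 485 CPM in LL and at 757, 361 and 409 CPM in HL. Number 1 was the highest library in every group, and the spread between numbers was much wider than the difference between lights. The log2 changes of -0.12 ± 0.42 in total RNA and -0.18 ± 0.34 in RPF were below their SE, and their sign turned when single libraries were left out. In RPF the change was 0.15 without LL 1 and 0.013 without HL 2, and in total RNA it was 0.24 without LL 1 and 0.19 without HL 3. Without number 1 it was -0.0025 in total RNA and -0.25 in RPF.

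**Figure D2:**
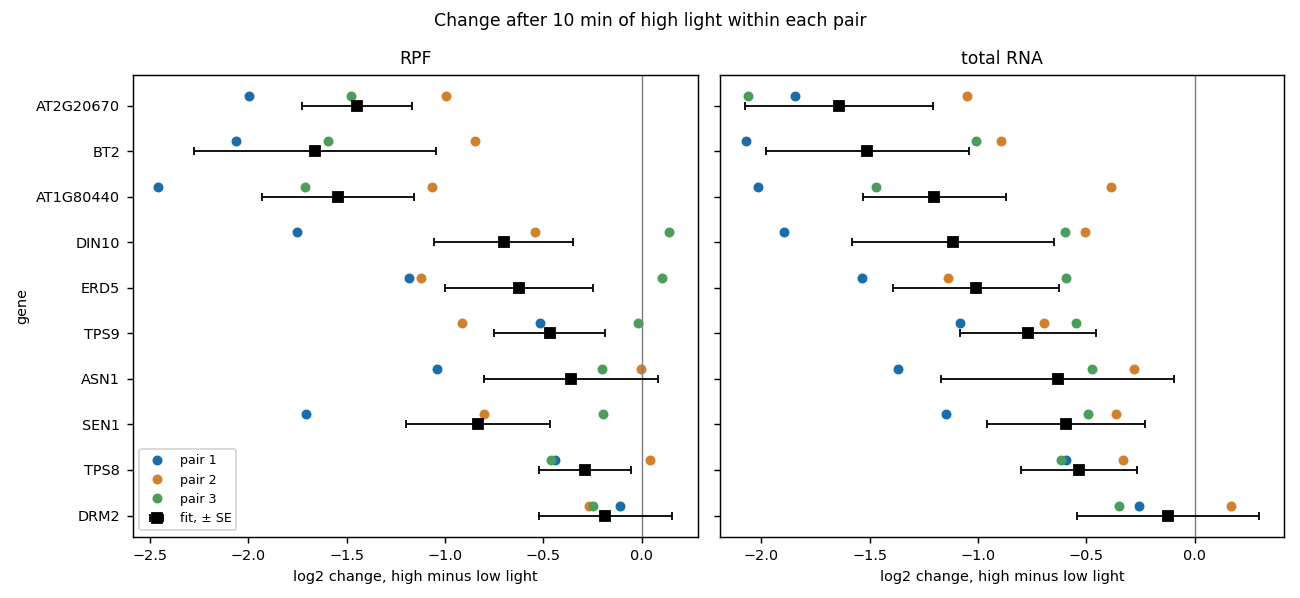
Log2 change from LL to HL (horizontal axes) of the 10 genes in RPF and total RNA, within each numbered pair of libraries (coloured points) and from the fit (black squares with SE). In total RNA all points of 9 genes lie below 0, the exception being pair 2 of DRM2 at 0.17.

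Libraries of the same number resembled each other, so the change was also followed within each number. In total RNA 9 of the 10 genes, all but DRM2, were lower in HL in 3 of 3 pairs, as were 14.7% of the genes tested. In RPF 7 of 10 were lower in 3 of 3 pairs, against 15.1% of the genes tested. The exceptions in RPF were DIN10 and ERD5, which were higher in HL in pair 3, at 0.14 and 0.10, and TPS8, which was higher in pair 2, at 0.043. In total RNA the HL libraries of BT2, AT1G80440 and AT2G20670 were all below their LL libraries, and 3.17% of tested genes had that order. AT1G80440, AT2G20670 and TPS9 had it in RPF, against 4.47%. Because these contrasts served to choose the genes, nothing is read from these shares, nor from the counts of calls in the same contrasts.

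The size of the change differed between the numbers. The median log2 change of the 10 genes was -1.45 in pair 1, -0.82 in pair 2 and -0.22 in pair 3 of the RPF libraries, and -1.45, -0.45 and -0.60 in the total RNA libraries. The median over all genes stayed between -0.0065 and 0.011 in all of these pairs. Pair 1, whose RPF libraries were mostly rRNA, had the lowest of the 3 values for 7 of the 10 genes in RPF and for 7 in total RNA, but its total RNA libraries held at most 0.308% rRNA and gave the same median; whether the rRNA has a part in this was not tested. Without number 1 the median over the 10 genes was -0.38 in RPF and -0.59 in total RNA, with all 10 genes still below 0.

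The edgeR quasi-likelihood test without the numbers called 0 of the 10 genes in RPF, where it called 24 genes higher and 0 lower, or 0% lower, of 10755. At an unadjusted p under 0.05 it listed 4 of them, beside 3.35% of tested genes, and DESeq2 called 2 lower, beside 0.0186%. In total RNA it also called 0 of the 10, beside 0.0127% of tested genes lower, with 6 at an unadjusted p under 0.05, beside 2.36%, and 1 called lower by DESeq2, beside 0.0574%. With the number as a block, 6 of the 10 were called lower in RPF (BT2, AT1G80440, AT2G20670, SEN1, DIN10 and ERD5), beside 0.428% of tested genes. The block called 5 lower in total RNA (BT2, AT1G80440, AT2G20670, ERD5 and TPS9), beside 0.287%. With the block but without number 1, the calls were AT1G80440, AT2G20670 and BT2 in RPF, beside 0.0803% of genes called lower, and AT2G20670, ERD5 and BT2 in total RNA, beside 0.195%. Since the genes were selected on these changes, such counts only describe where they stand and do not test them.

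**Figure D3:**
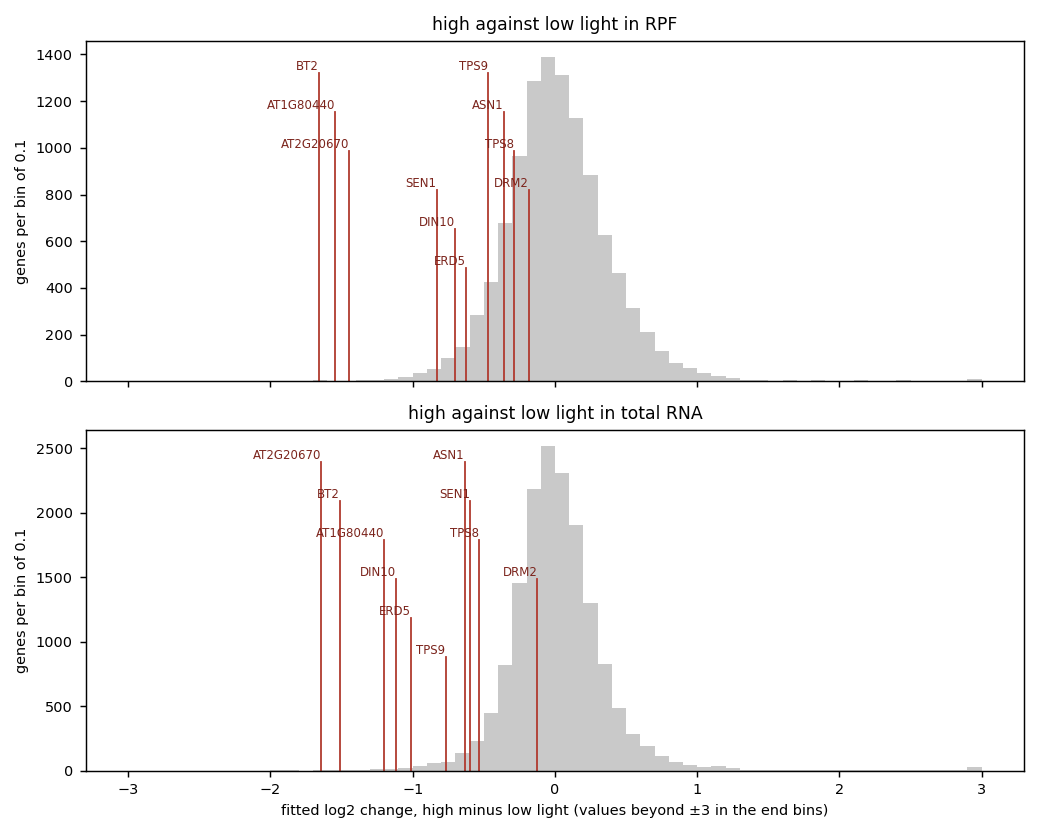
Number of tested genes per bin of 0.1 (vertical axes) by fitted log2 change from LL to HL (horizontal axis), for RPF above and total RNA below, with the 10 genes as red lines whose heights carry no value. In both panels BT2, AT1G80440 and AT2G20670 lie below -1.1, far left of the bulk of genes, and DRM2 lies within it.

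The blocked fit gave nearly the same changes with smaller errors. BT2 was at -1.55 ± 0.19 in RPF and -1.33 ± 0.21 in total RNA, AT1G80440 at -1.65 ± 0.20 and -1.21 ± 0.25, and AT2G20670 at -1.47 ± 0.21 and -1.63 ± 0.19. The spread between libraries of one group is given by the biological coefficient of variation. The median value of the 10 genes in the fit without the block was 0.319 in RPF and 0.348 in total RNA, against 0.242 and 0.228 over all tested genes, and 7 of the 10 exceeded the median gene in RPF and all 10 did in total RNA. With the block, where differences between numbers are taken out of the spread, the values were 0.124 and 0.166, against 0.150 and 0.141.

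Summed over the 10 genes, total RNA was at 1964, 1196 and 1425 CPM in LL and at 1200, 1119 and 959 CPM in HL. DRM2 made up much of these sums. Without it the remaining 9 genes summed to 915, 505 and 991 CPM in LL and to 323, 343 and 618 CPM in HL.

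**Figure D4:**
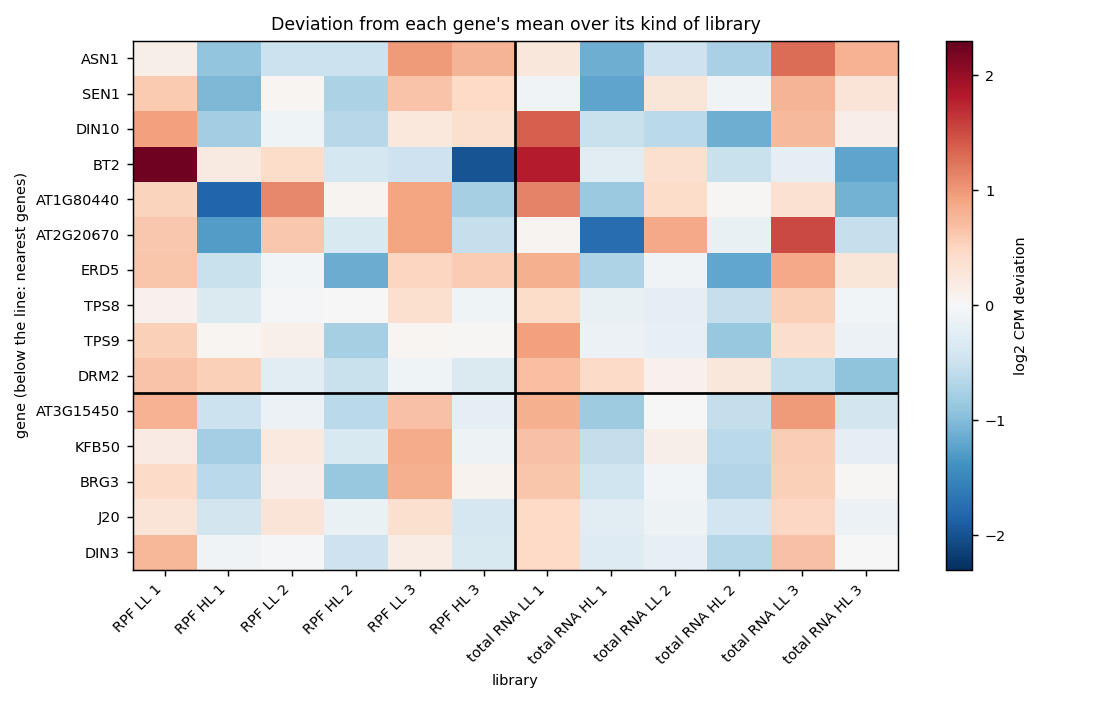
Log2 CPM minus the gene's own mean over its kind of library (colour) for the 10 genes, and below the line the 5 genes nearest to their mean profile, in the 6 RPF and 6 total RNA libraries. LL columns are mostly red and HL columns mostly blue, ASN1 is red in both lights of number 3, and BT2 is darkest in LL 1.

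Levels per kilobase of gene span put the genes on one scale within total RNA. In LL the order of mean total RNA levels was DRM2 with 835 ± 356 CPM per kb (SD, n = 3), ASN1 with 72.8 ± 44.2, BT2 with 48.8 ± 36.6, AT2G20670 with 47.5 ± 22.7, SEN1 with 42.3 ± 12.9, DIN10 with 40.3 ± 24.0, TPS8 with 26.0 ± 6.7, ERD5 with 16.5 ± 5.4, AT1G80440 with 14.7 ± 4.8 and TPS9 with 7.5 ± 2.9. DRM2 stood clear of all others. From ASN1 to DIN10, neighbours in this order differed by less than their SD, and so did ERD5 and AT1G80440. The other neighbours differed by more than the smaller of their SDs. Spans include introns and untranslated regions.

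Translational efficiency, RPF relative to total RNA, was compared between the lights in a single fit over both kinds of library. None of the 10 genes was called, and neither was any of 12782 tested genes (0%) by edgeR's quasi-likelihood test; 180 genes, none of them among the 10, had an unadjusted p under 0.05, and DESeq2 called 0. The fitted log2 changes of the 10 genes ranged from -0.35 ± 0.57 for AT1G80440 to 0.40 ± 0.65 for DIN10, each smaller than its SE. Their median was 0.20, against 0.020 over all tested genes, and 6 were above 0. The SEs were 0.35 to 0.89 on the log2 scale, and 0.29 to 0.47 with the number as a block, where 0 of the 10 were called as well. Changes of efficiency no larger than these SEs were not detectable at this depth and spread. After adjustment over 12782 genes, changes well above these SEs could also go uncalled, so the SEs are no detection limit.

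Within numbers, RPF over total RNA of AT1G80440 was lower in HL in all 3, by log2 values of -0.44, -0.68 and -0.24, a pattern found in 11.6% of genes. ASN1, ERD5 and TPS8 were higher in HL in all 3. The share of all genes with that pattern was not counted, so nothing is read from it. For ASN1 the 3 differences were alike, at 0.33, 0.28 and 0.27. The other 6 genes had both signs.

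The level of RPF relative to total RNA within one light was not itself a value used to choose the genes and was tested. It rests on the same libraries as the light changes that were used. The p-values below are therefore not independent of the choice of genes. CPM of RPF and of total RNA are scaled separately, and plastid genes took 55.6% to 72.6% of protein-coding counts in total RNA and 42.6% to 58.1% in RPF. Values are therefore given relative to the median log2 ratio of all tested genes, which was 0.57 in LL and 0.26 in HL. On that scale AT1G80440 was the one gene with far more RPF than its transcript level, 1.59 above the median in LL and 1.27 above it in HL. The tests compared each ratio with 0 and not with the median, so distances from the median were not tested. Each light was fitted and scaled on its own, so these medians are not compared between lights.

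In LL the log2 ratios of AT1G80440 were 1.21, 2.53 and 2.39 in numbers 1, 2 and 3, and in HL 0.77, 1.85 and 2.15. Number 1 was the lowest in both lights, and every value was above the fitted median of all genes. These values were scaled over both lights and the medians within each light, so distances between them are approximate. The fitted ratio was 2.16 ± 0.30 in LL (edgeR quasi-likelihood test, adjusted p = 0.000638), higher than in 97.5% of genes. In HL it was 1.53 ± 0.44 (edgeR adjusted p = 0.0373). Higher calls were common on this scale, at 25.7% of tested genes in LL and 12.6% in HL. When nuclear genes alone set the scale, AT1G80440 still passed in LL (edgeR adjusted p = 0.0074), where 3.56% of genes were called higher, but not in HL (edgeR adjusted p = 0.138), where 3.6% were called higher. The call in LL held in 15 of 15 alternatives, with adjusted p of at most 0.0386. That in HL held in 10 of 15, with adjusted p up to 0.598, and was lost without total RNA HL 1 (edgeR adjusted p = 0.147), RPF HL 2 (0.282) or RPF HL 3 (0.0777).

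**Figure D5:**
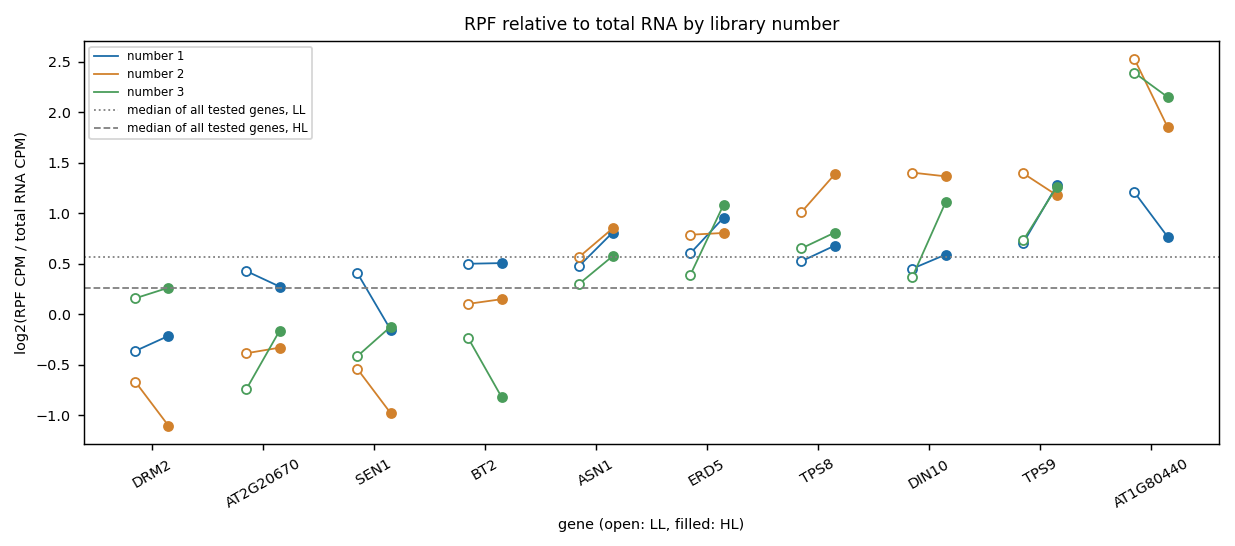
Log2 ratio of RPF CPM to total RNA CPM (vertical axis) of the 10 genes, by library number, in LL (open circles) and HL (filled circles). Grey lines mark the medians of all tested genes in the fits within each light, 0.57 in LL and 0.26 in HL. The points were scaled over both lights, so their distances from the lines are approximate. AT1G80440 has the highest mean in each light, with all 6 points above both lines as drawn. In number 1 of HL it lies below TPS9, ERD5 and ASN1.

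TPS9 passed the same test against 0, with ratios of 1.05 ± 0.31 in LL (edgeR adjusted p = 0.0250) and 1.06 ± 0.29 in HL (edgeR adjusted p = 0.0314). It stood 0.48 and 0.80 above the median of all genes, distances that were not tested. The calls held in 9 and 7 of 15 alternatives. In LL its call was lost without RPF LL 1, RPF LL 2, total RNA LL 2 or total RNA LL 3 (edgeR adjusted p = 0.0527 to 0.126). In HL it was lost without RPF HL 1, total RNA HL 1, total RNA HL 2 or RPF HL 3 (edgeR adjusted p = 0.0814 to 0.146). TPS8 was called in HL, with a ratio of 0.77 ± 0.24 (edgeR adjusted p = 0.0486), and not in LL (adjusted p = 0.0526). The HL call held in 6 of 15 alternatives and was lost without total RNA HL 1, RPF HL 2, total RNA HL 2 or RPF HL 3 (edgeR adjusted p = 0.124 to 0.214). With nuclear genes alone as the scale neither passed in either light. With the number as a block, DIN10 and ERD5 were also called higher in both lights and TPS8 in LL, so that 5 of the 10 were called higher in each light, beside 35.4% of genes in LL and 16.6% in HL. With the block but without number 1, TPS9, TPS8, AT1G80440 and DIN10 were called higher in LL, beside 3211 of 14536 genes. In HL only AT1G80440 and DIN10 were, beside 1383 of 14229 genes.

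At the other end, AT2G20670, DRM2 and SEN1 had less RPF for their transcript level than most genes. They were 0.81, 0.78 and 0.66 below the median in LL and 0.61, 0.83 and 0.88 below it in HL. These distances were not tested. The ratios themselves, which were tested against 0, were -0.24, -0.21 and -0.086 in LL and -0.35, -0.57 and -0.62 in HL. None of these ratios passed in either light. Lower calls were few over all genes, at 0.545% in LL and 0.896% in HL, where the median gene lay above 0. With nuclear genes alone as the scale, where the median was -0.021 in LL and -0.19 in HL, none of the 3 was called either. With all genes of the files setting the scale, rRNA included, the median of all genes was -0.60 in LL and -1.00 in HL, and these 3 genes were called lower in both lights and BT2 in HL. On that scale 17.4% of all genes were called lower in LL and 60.4% in HL, so no reading is made of these counts. ASN1 and BT2 lay within 0.24 of the median in both lights.

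The wider sugar-starvation pathway was followed in lists that, like the 10 genes, were written with earlier results known. The adjusted p-values printed for genes of these lists, and the counts of genes below 0, therefore describe where they stand and are no test of the pathway. Of all tested genes, 50.4% were below 0 in RPF and 51.1% in total RNA. Among 11 genes of SnRK1 and trehalose-6-phosphate signalling, which include the kinase subunits and other TPS genes, all were tested and 0 were called in RPF or in total RNA without the block. Their medians were -0.12 in RPF and -0.17 in total RNA. TPS11, a class II relative of TPS8 and TPS9 and the most abundant gene of the list, was at 82.7 ± 27.7 CPM in LL and 48.1 ± 18.3 CPM in HL in total RNA (SD, n = 3). Its log2 change was -0.78 ± 0.33 (edgeR adjusted p = 1.00), and with the block it fell by 0.77 ± 0.17 (edgeR adjusted p = 0.0489). TPS11 had the smallest p of the list in RPF, with a change of -0.53 ± 0.25. With the block this was -0.55 ± 0.16 and was not called (edgeR adjusted p = 0.0508). TPS10 had the smallest p in total RNA, at -0.63 ± 0.26 (edgeR adjusted p = 1.00).

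Of 9 bZIP factors of groups C and S1, the DNA-binding partners of this pathway, 4 had enough counts to be tested, and 0 were called with or without the block. In each kind of library 2 of the 4 were below 0 and 2 above, with medians of -0.027 in RPF and -0.062 in total RNA. bZIP9 was at 5.52 ± 2.12 CPM in LL and 11.6 ± 3.7 CPM in HL in RPF, a log2 change of 1.03 ± 0.44 (edgeR adjusted p = 1.00). bZIP25 and bZIP10 had log2 changes of 0.015 ± 0.21 and 0.37 ± 0.23 in total RNA (edgeR adjusted p = 1.00 for both).

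The list of amino acid recycling held 16 genes, of which 14 were tested in RPF and 15 in total RNA, with 0 called in any of the fits. In total RNA 14 of 15 were below 0, with a median of -0.27, and in RPF 9 of 14, with a median of -0.14. DIN3, a subunit of the branched-chain keto acid dehydrogenase, was at 12.8 ± 3.7 CPM in LL and 8.04 ± 1.83 CPM in HL in total RNA. Its log2 change there was -0.65 ± 0.28 (edgeR adjusted p = 1.00). ASN2, the relative of ASN1 that is known to be expressed in the light, was at -0.15 ± 0.27 (edgeR adjusted p = 1.00).

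Among 13 other dark-inducible and sugar-repressed genes, 10 were tested in RPF and 11 in total RNA, and their medians were -0.44 and -0.66. None was called without the block. AT3G15450 was at 369 ± 115 CPM in LL and 192 ± 28 CPM in HL in RPF, and at 375 ± 122 and 159 ± 22 CPM in total RNA. With the block it fell by 0.91 ± 0.14 in RPF (edgeR adjusted p = 2.14e-07) and by 1.19 ± 0.22 in total RNA (edgeR adjusted p = 0.0188); without it the adjusted p were 0.831 and 0.444. BXL1, a beta-xylosidase of the cell wall, fell in RPF with the block by 0.63 ± 0.14 (edgeR adjusted p = 0.00231). AT5G22920, a RING zinc-finger gene, fell in total RNA with the block by 0.75 ± 0.16 (edgeR adjusted p = 0.0497).

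The relatives of BT2 and of AT1G80440 numbered 7, of which 6 were tested in RPF and 7 in total RNA, and all tested genes were below 0 in both. The medians were -0.61 and -0.43, and 0 were called without the block. KFB50, a Kelch repeat F-box relative of AT1G80440, was at 125 ± 23 CPM in LL and 65.9 ± 10.2 CPM in HL in total RNA. With the block it fell by 0.92 ± 0.16 in total RNA (edgeR adjusted p = 0.0141) and by 0.86 ± 0.16 in RPF (edgeR adjusted p = 6.07e-05). BT5, a relative of BT2, fell in total RNA with the block by 1.14 ± 0.20 (edgeR adjusted p = 0.0119), from 10.8 ± 3.0 CPM in LL to 4.93 ± 1.09 CPM in HL.

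For contrast, 7 genes known to be induced by sugar were listed, of which 4 were tested in RPF and 5 in total RNA, with 0 called. In RPF 3 of 4 were below 0, with a median of -0.25, and in total RNA 3 of 5, with a median of -0.46 that was -0.23 with the block. NIA1 and NIA2, the nitrate reductases, had log2 changes of -0.62 ± 0.27 and -0.46 ± 0.32 in total RNA (edgeR adjusted p = 1.00 for both).

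The genes with the profile nearest to the mean of the 10 were found over all 12 libraries, as the root mean square difference of log2 CPM after each gene's mean per kind of library was removed. Among 10723 genes, whose median difference was 0.58, the nearest were AT3G15450 at 0.189, KFB50 at 0.220, BRG3 at 0.222, J20 at 0.236 and DIN3 at 0.245. Of these 5, AT3G15450, KFB50 and DIN3 also stand in the lists above. The 10 genes themselves lay farther from their own mean, from 0.306 for TPS8 to 0.920 for BT2.

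Levels of leaf cell type markers were compared beside these changes. The 3 phloem markers summed to between 112 and 228 CPM in total RNA LL and between 102 and 141 CPM in total RNA HL, and to between 211 and 354 and between 193 and 272 CPM in RPF. The ranges overlapped between lights, as did those of guard cell, epidermis and mesophyll markers, and the part of cell composition in the changes was not tested.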

How the data were processed

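The 12 libraries fall into 4 groups of 3 by their titles. The deposited values are whole-number counts made with featureCounts 1.5.0-p1, per the file headers, which also give strand setting 1 for RPF and 2 for total RNA, and alignment with Bowtie2 for RPF and subjunc for total RNA. Counts cover whole gene spans of TAIR10, introns and untranslated regions included, so RPF and total RNA can differ for reasons of gene structure. The submitters' processing notes name cutadapt 1.9.1, FastQC 0.11.5, Bowtie2 2.2.9 and Subread 1.4.5. How short fragments shared by related genes were assigned was not analysed here. Names came from a RefSeq gene table that matched 28009 of 28775 genes. Of the 26777 protein-coding genes, those that passed the filter on low counts were tested. For high against low light these were 10755 in RPF and 15691 in total RNA.

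The fits used edgeR 4.0.16 in R 4.3.3 (filterByExpr, TMM within each kind of library, quasi-likelihood test), with Benjamini-Hochberg adjustment over all tested genes and a threshold of 0.05. CPM are scaled to TMM library sizes. DESeq2 1.42.0 served as an alternative, with other filters, gene sets and left-out libraries. The scripts were tested on simulated data. Figures were drawn with Python 3.11.15 and matplotlib 3.10.9. Between replicates of a group, chi-square per degree of freedom was 12.46 to 573.09 in 12 pairs, so no library was a copy of another. Libraries of the same number deviated together from their group means: the correlation across genes between LL and HL was 0.30 to 0.49 for RPF and 0.37 to 0.51 for total RNA, and between RPF and total RNA 0.14 to 0.31. A replicate block is therefore printed where it changes a call. Intervals and p-values measure the spread between these libraries or, with the block, the spread left after differences between numbers are taken out.

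The 10 genes, the lists and the tests were chosen with earlier results of these data known. All 10 genes are named. From each list the gene with the smallest p in each light comparison and the most abundant one in total RNA are named, and others called with the block were named after their values were seen.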

Additional observations from a re-analysis of the deposited data

How the results depend on the processing

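The counts of called genes depended on the handling of the library numbers and on the scale. For high against low light in RPF, 0 of 10 genes were called, and 6 with the replicate block, 2 with DESeq2, 3 with no filter on low counts, 3 with the replicate block without number 1 and 3 with DESeq2 and the block. In total RNA the corresponding counts were 0, 5, 1, 1, 3 and 5. Over all genes in RPF, 5 of 20516 were called lower with no filter and 6 of 10755 with DESeq2 and the block. In total RNA these were 6 of 21896 and 34 of 15691. The shares for the other settings are given above. Leaving out 1 library at a time gave 0 to 0 in both, and 0 were called for translational efficiency in every alternative. All 10 log2 changes stayed below 0 in 12 of 15 alternatives in RPF and in 13 of 15 in total RNA; in the others 1 gene, DRM2 or ASN1, was above 0. For RPF against total RNA in LL, 2 genes were called, and 5 with the replicate block, 4 with all genes in the fit (1 higher and 3 lower), 1 with nuclear genes alone, 1 to 2 without 1 library, 4 with the block without number 1 and 5 with DESeq2 and the block. In HL the count was 3, and 5 with the block, 0 with nuclear genes alone, 0 to 6 without 1 library and 1 without number 1. With the block without number 1, AT1G80440 and DIN10 were called in HL. Over all genes in LL, DESeq2 and the block called 3003 of 11751 higher, and fits without 1 library called 1227 to 2643 higher. In HL, fits without 1 library called 634 to 2610 genes higher, and the fit without number 1 called 889 of 14229. The 6 in HL came without total RNA HL 3, beside 2610 of 11694 genes. All-gene calls were 3025 higher and 64 lower in LL, 424 and 217 with nuclear genes alone, and 367 and 2501 with all genes; in HL 1745 and 124, 517 and 529, and 411 and 9412. Relative to the median, ASN1 in LL turned from -0.046 to 0.028 with no filter and to 0.026 with the block without number 1. Leaving out 1 library gave ASN1 -0.53 to 0.51, BT2 -1.26 to 0.67, ERD5 -0.14 to 0.31 and DIN10 -0.24 to 0.65 in LL, and ASN1 -0.41 to 0.97, ERD5 -0.044 to 0.96 and BT2 -0.71 to 0.15 in HL; the cause was not tested. The planned search of promoters for motifs was not run, since no promoter sequence was used here.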
